A study of Mus musculus with 15 samples.

Results

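The glutathione peroxidases, catalase and the superoxide dismutases are the enzymes that remove superoxide and peroxides from cells. Their genes were read out in LL2, a mouse Lewis lung carcinoma line that carries luciferase, and in 4 knockout lines derived from it. The members were the rows of the expression table whose symbol is *Gpx1*, *Gpx2*, *Gpx3*, *Gpx4*, *Gpx7*, *Gpx8*, *Cat*, *Sod1*, *Sod2* or *Sod3*, and all 10 were found among 35880 gene symbols. Of these, 7 passed a filter on low values (at least 3 CPM, the unit of read counts after scaling every sample to the same total, summed over all samples) and were tested. *Gpx2*, *Gpx7* and *Sod3* lay below it and are given as values only.

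RNA of the parental line (LL2 WT), of 3 *KEAP1* KO clones (#1, #2 and #3) and of 1 *NRF2* KO clone was sequenced in 3 biologic replicates per line, 15 samples in all. All lines carry the Luc2 reporter, received no treatment and grew in the same serum-containing medium. Plasmids with Cas9, GFP and a guide RNA against *Keap1* or *Nfe2l2*, the gene of NRF2, were introduced into LL2 cells, and each knockout line was expanded from a single cell. LL2 WT was not cloned, so each knockout line differs from it by clonal origin as well as by genotype, and for *NRF2* KO these cannot be told apart because there is 1 clone. Nothing in the labels says that replicates came from separate cultures, so p-values measure the spread between these samples, which may be technical. The 4 comparisons against LL2 WT share its 3 samples.

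KEAP1 holds NRF2 in the cytoplasm and marks it for degradation. Released NRF2 binds antioxidant response elements in the promoters of detoxifying and antioxidant genes. Superoxide dismutases turn superoxide into hydrogen peroxide, catalase splits hydrogen peroxide into water and oxygen in peroxisomes, and glutathione peroxidases reduce hydrogen peroxide and lipid peroxides with electrons from glutathione. GPX4 reduces peroxidized lipids within membranes and thereby guards cells against ferroptosis, an iron-dependent form of cell death.

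The family members differ in the residue that meets the peroxide, and the codon for this residue is shown because it separates the selenium-dependent enzymes from the others. The coding stretches below are from the mouse build GRCm38 (GENCODE M21), 5′ to 3′ on the gene's own strand, with 6 codons on each side and the active-site codon in capitals.
*Gpx1*: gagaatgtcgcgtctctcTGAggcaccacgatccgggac
*Gpx2*: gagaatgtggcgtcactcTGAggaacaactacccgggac
*Gpx3*: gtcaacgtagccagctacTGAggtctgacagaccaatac
*Gpx4*: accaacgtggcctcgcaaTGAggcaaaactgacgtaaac
*Gpx7*: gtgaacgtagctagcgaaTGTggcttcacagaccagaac
*Gpx8*: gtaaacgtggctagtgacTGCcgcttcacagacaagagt

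In *Gpx1*, *Gpx2*, *Gpx3* and *Gpx4* the codon is TGA, elsewhere a stop, which the annotation marks as selenocysteine. *Gpx7* and *Gpx8* have a cysteine codon at the position that aligns with the *Gpx4* stretch. The stretches of *Gpx1* and *Gpx2* were alike at 33 of 39 bases, those of *Gpx7* and *Gpx8* at 30 and those of *Gpx3* and *Gpx7*, which differ in the kind of codon, at 29, while *Gpx4* matched the others at 19 to 23 bases. The *Gpx4* codon (chr10:80054737-80054739, forward strand) lies in coding exon 3 of its transcript, the *Gpx1* codon (chr9:108339451-108339453, forward strand) in exon 1, the *Gpx2* codon (chr12:76795256-76795258, reverse strand) in exon 1 and the *Gpx8* codon (chr13:113045661-113045663, reverse strand) in exon 2.

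The knockouts and the identity of the line were examined first. *Keap1* averaged 23.0 CPM in LL2 WT, 11.8 in *KEAP1* KO #1, 5.53 in #2, 5.58 in #3 and 22.7 in *NRF2* KO, and the NRF2 target *Nqo1* averaged 30.3, 476, 276, 488 and 9.82 CPM in this order. *Nfe2l2*, the gene targeted in *NRF2* KO, averaged 186 CPM in LL2 WT and 119 in *NRF2* KO, with *KEAP1* KO #1, #2 and #3 at 96.4, 123 and 116 CPM, so its transcript did not set *NRF2* KO apart from them. Each sample had 17270 to 19750 genes above 0, and 13 mitochondrial genes took 2.46% to 5.07% of its CPM. The depth of single samples is unknown. At the study's average depth, 3 reads equal 0.1 CPM, and this approximate level served as the floor. Of 9 lung epithelial markers, *Sftpa1*, *Sftpd* and *Scgb1a1* were listed at 0 in all samples, *Hopx* lay between 1.09 and 17.3 CPM, *Ager* between 0.309 and 0.909, and the other 4 did not exceed 0.837 CPM. *Epcam* and *Cdh1* did not exceed 0.0485 and 0.0618 CPM, while *Krt18* lay between 234 and 575 and *Vim* between 1534 and 5427 CPM. Of the 6 leukocyte and macrophage markers, only *Cd68* was over 1 CPM, *Adgre1* was at 0 and *Ptprc* at most at 0.192 CPM. Their summed level was 2.07 to 4.54 CPM in LL2 WT, 5.29 to 9.49 in *KEAP1* KO #1, 9.58 to 22.8 in #2, 14.4 to 37.3 in #3 and 2.05 to 3.22 in *NRF2* KO. The 6 mesenchymal markers, nearly all *Vim*, summed to 3456 to 5448 CPM in LL2 WT, 3136 to 4301 in *NRF2* KO and 1540 to 2043 in the *KEAP1* KO clones. The part of these markers in the results was not tested.

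Both intracellular superoxide dismutases rose in every *KEAP1* KO clone, *Cat* and *Gpx4* rose in *KEAP1* KO #3, and *Gpx1* and *Gpx8* passed the test in no line. None of the 7 tested members was called in any line against LL2 WT, where a call needs an adjusted p under 0.05 (limma, adjusted over 14652 genes) and a log2 fold change beyond 1 in either direction. The shares of all tested genes called higher were 4.55% in *KEAP1* KO #1, 5.94% in #2, 6.09% in #3 and 0.0887% in *NRF2* KO, and those called lower were 3.99%, 7.75%, 7.34% and 0.375%. By the adjusted p alone, 2 members rose in *KEAP1* KO #1, 2 in #2, 4 in #3 and 0 in *NRF2* KO, and none fell in any line. These counts stand against 15.9%, 17.3%, 16.6% and 0.13% of all tested genes that rose by the same rule. The shares that fell by it were 7.25%, 14.6%, 14.8% and 0.491%. At an unadjusted p under 0.05 there were 2, 4, 4 and 2 members. The share of all tested genes at that unadjusted p was not computed, so nothing is read from these member counts. Every sample lay above those of LL2 WT for 2 members in *KEAP1* KO #1, 3 in #2, 5 in #3 and 0 in *NRF2* KO, beside 24.6%, 23.4%, 22% and 8.68% of tested genes. Every sample lay below them for 0, 0, 1 and 1 members, beside 12.4%, 18.6%, 18% and 4.53%. The median log2 fold change of the tested members was 0.24, 0.36, 0.65 and −0.06 in these lines, beside 0.11, 0.03, 0.02 and 0.04 for all tested genes. The median of 0.11 over all tested genes in *KEAP1* KO #1 was 0.01 with CPM rescaled by the median ratio, and its source was not tested. The direction of no tested member in *KEAP1* KO #1 changed when CPM were rescaled by the median ratio. In bulk RNA, a smaller share of cells that express a gene and less RNA per cell cannot be told apart. CPM are not divided by transcript length, so levels are compared between lines and not between genes.

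**Figure D1:**
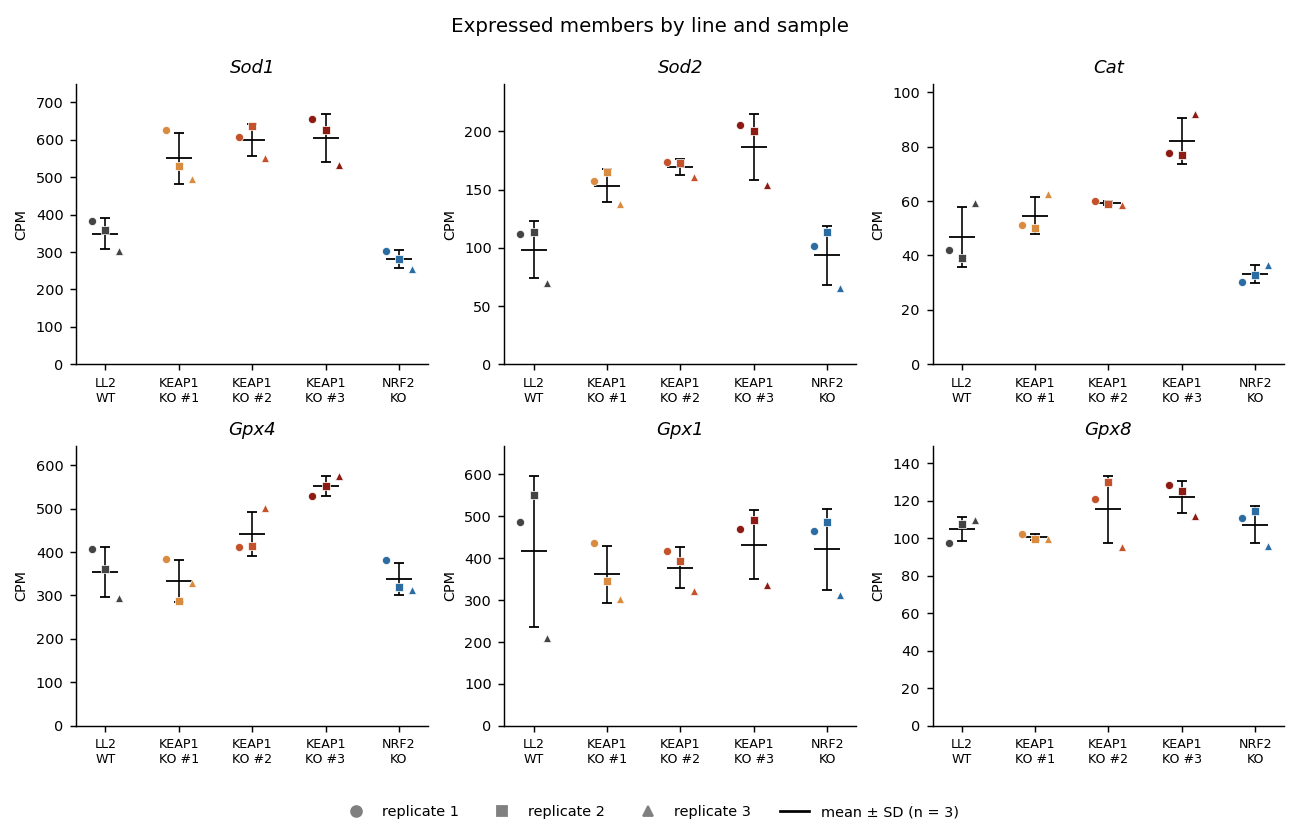
CPM (linear axis from 0) of the 6 members expressed well over the floor, by line; points are samples, shaped by replicate number, and bars give the mean ± SD (n = 3). All *KEAP1* KO samples lie above every LL2 WT sample for *Sod1* and *Sod2*, *KEAP1* KO #3 stands above the other lines for *Cat* and *Gpx4*, and the *Gpx1* ranges overlap.

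SOD1 is the copper-zinc enzyme of the cytosol. *Sod1* (chr16:90220754-90226329, forward strand) was at 384, 359 and 303 CPM in LL2 WT replicates 1 to 3, at 627, 530 and 494 CPM in *KEAP1* KO #1, at 608, 636 and 552 in #2, at 655, 627 and 534 in #3 and at 304, 282 and 256 in *NRF2* KO. All 9 *KEAP1* KO samples lay above every LL2 WT sample, and the range of *NRF2* KO just met that of LL2 WT. *Sod1* rose 1.58-fold in *KEAP1* KO #1 (adjusted p = 0.00198), 1.72-fold in #2 (adjusted p = 0.000345) and 1.74-fold in #3 (adjusted p = 0.000297). The clones themselves spanned 0.14 on the log2 scale (moderated F-test, adjusted p = 0.716). In *NRF2* KO the log2 fold change was −0.31 ± 0.12 (SE), with an unadjusted p of 0.0235 and an adjusted p of 0.353. The latter depended on the setting, at 0.0261 with the replicate number as a block and 0.17 without replicate 3 of every line.

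*Sod1* was the 1 member called in the comparison that leaves LL2 WT out, the mean of the *KEAP1* KO clones against *NRF2* KO, with a log2 difference of 1.06 (95% interval 0.84 to 1.27, adjusted p = 4.67e-06). In that comparison 5.19% of tested genes were called higher and 4.75% lower. By the adjusted p alone, 4 members were higher in the *KEAP1* KO clones, beside 13.6% of tested genes. For 3 members (*Sod1*, *Sod2* and *Cat*) the *KEAP1* KO samples were all above the *NRF2* KO samples and for 0 they were all below, beside 9.57% and 6.94%. The difference was 0.97 with quantile normalization and 0.99 without *NRF2* KO replicate 3, which are not called.

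The *Sod1* promoter is shown because it was the only one of the members in which the searched element was found. The antioxidant response element was searched as TGACNNNGC and as TGAGNNNGC on both strands, in windows of 300 bases (250 before and 50 after each start) from RefSeq on GRCm38.p6. For 9 of the 10 members, 12 windows were held. A match to TGACNNNGC on the opposite strand begins 56 bases before the *Sod1* start, in capitals within chr16:90220680-90220739 (forward strand).
*Sod1* promoter: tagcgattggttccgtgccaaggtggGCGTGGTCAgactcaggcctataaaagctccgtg

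Of all 32851 promoter windows, 12.4% held TGACNNNGC and 27.8% held either form. The match describes letters in the window and is no evidence of binding. A window without it says only that these letters are not there.

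SOD2 is the manganese enzyme of the mitochondrial matrix. *Sod2* (chr17:13006846-13040063, forward strand) was at 112, 113 and 69.9 CPM in LL2 WT. It was at 157, 165 and 138 CPM in *KEAP1* KO #1, at 173, 173 and 161 in #2, at 205, 200 and 154 in #3, and at 102, 114 and 65.1 in *NRF2* KO. The *KEAP1* KO samples again lay above every LL2 WT sample, while the *NRF2* KO range covered that of LL2 WT. The rise was 1.59-fold in *KEAP1* KO #1 (adjusted p = 0.0379), 1.76-fold in #2 (adjusted p = 0.0112) and 1.93-fold in #3 (adjusted p = 0.0047). The clones spanned 0.27 on the log2 scale without passing the F-test (adjusted p = 0.713). In *NRF2* KO the log2 fold change was −0.08 (95% interval −0.54 to 0.39, adjusted p = 0.931).

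The rise of *Sod2* in *KEAP1* KO #1 depended on the setting. Its log2 fold change was 0.67, and it was 0.56 with CPM rescaled by the median ratio (adjusted p = 0.124) and 0.44 without LL2 WT replicate 3 (adjusted p = 0.147). The adjusted p also lay over 0.05 without each of its own replicates 1 (0.0924), 2 (0.125) and 3 (0.0538). So it did with quantile normalization (0.0524), without the filter (0.0671) and without the variance trend (0.0544). A model of only the lines compared gave 0.0888. The adjusted p was under 0.05 with the replicate number as a block (0.00114) and without replicate 3 of every line (0.00185). A batch term for replicate 3, added after seeing the data, gave 0.000751. In *KEAP1* KO #2 and #3 the adjusted p stayed under 0.05 whichever replicate was left out, ranging over 0.0045 to 0.046. In #3 *Sod2* is called without LL2 WT replicate 1 (1.05) or 2 (1.06) or without its own replicate 3 (1.08). The mean of the *KEAP1* KO clones lay 0.89 above *NRF2* KO (adjusted p = 0.00216), and 1.05 above it, a call, without *NRF2* KO replicate 2. Other genes share 26.6% of the 31-base stretches of *Sod2* transcripts, and reads could be exchanged there.

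SOD3 is the secreted copper-zinc enzyme. *Sod3* (chr5:52363791-52371418, forward strand) did not exceed 0.217 CPM, and 12 of 15 samples were at or under the floor. The 3 samples over it were LL2 WT replicate 3 (0.119 CPM) and *KEAP1* KO #1 replicates 1 (0.217) and 3 (0.138). *KEAP1* KO #3 and *NRF2* KO had their highest values at 0.0185 and 0.018 CPM. No fold is given because the lines lie at or around the floor.

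Catalase was the member with the widest spread of line means among those well over the floor. *Cat* (chr2:103453849-103485160, reverse strand) was at 42.1, 38.9 and 59.3 CPM in LL2 WT and at 51.4, 50.05 and 62.6 CPM in *KEAP1* KO #1. It was at 60.0, 58.9 and 58.7 CPM in #2, at 77.8, 76.9 and 92.0 in #3 and at 30.4, 32.6 and 36.6 in *NRF2* KO. The order of the means was *KEAP1* KO #3, #2, #1, LL2 WT and *NRF2* KO, and the neighbours #2 and #1, and #1 and LL2 WT, overlapped. All samples of *KEAP1* KO #3 lay above and all samples of *NRF2* KO below those of the other lines.

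*Cat* rose 1.78-fold in *KEAP1* KO #3 (log2 fold change 0.83, 95% interval 0.51 to 1.15, adjusted p = 0.000902). It was 0.24 (adjusted p = 0.257) in *KEAP1* KO #1 and 0.36 (adjusted p = 0.0752) in #2 on the log2 scale. LL2 WT replicate 3 was far above its other 2 samples, and without it the log2 fold changes were 0.42 in #1 (adjusted p = 0.0273), 0.55 in #2 (adjusted p = 0.0052) and 1.01 in #3, the last of which is called. The value in *NRF2* KO was then −0.29 (adjusted p = 0.463). Without LL2 WT replicate 2 the log2 fold changes were lower in #1 (0.12, adjusted p = 0.58) and #2 (0.24, adjusted p = 0.23), and leaving out *KEAP1* KO #1 replicate 3 gave 0.14 in #1 (adjusted p = 0.569). With all samples, the log2 fold change in *NRF2* KO was −0.47 (95% interval −0.79 to −0.16) with an unadjusted p of 0.00674 and an adjusted p of 0.223. The latter was 0.0282 with the replicate number as a block and 0.0881 without replicate 3 of every line. The groups did not overlap, as for 4.53% of tested genes with every *NRF2* KO sample lower. The mean of the *KEAP1* KO clones exceeded *NRF2* KO 1.93-fold (adjusted p = 6.75e-05), short of a log2 difference of 1, which it passed without *NRF2* KO replicate 3 (1.02).

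GPX4 is the enzyme that detoxifies lipid peroxides in membranes. *Gpx4* (chr10:80047166-80056439, forward strand) was at 408, 360 and 294 CPM in LL2 WT, at 383, 288 and 329 in *KEAP1* KO #1, at 413, 413 and 501 in #2, at 528, 551 and 576 in #3, and at 381, 320 and 313 in *NRF2* KO. *KEAP1* KO #2 and #3 lay above every LL2 WT sample and did not overlap with each other, while LL2 WT, *NRF2* KO and *KEAP1* KO #1 overlapped. The rise passed the test in *KEAP1* KO #3, at 1.57-fold (log2 fold change 0.65, 95% interval 0.36 to 0.95, adjusted p = 0.00299). It did not in #2 (0.33, 95% interval 0.03 to 0.62, adjusted p = 0.0856) unless LL2 WT replicate 1 was left out (0.44, adjusted p = 0.0449). The value in #2 was 0.20 without LL2 WT replicate 3 (adjusted p = 0.30) and 0.11 without replicate 3 of every line (adjusted p = 0.578). The values were −0.08 in #1 (95% interval −0.38 to 0.21, adjusted p = 0.702) and −0.06 in *NRF2* KO (95% interval −0.36 to 0.24, adjusted p = 0.911).

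The *KEAP1* KO clones differed in *Gpx4*, by 0.74 between the highest and the lowest clone mean on the log2 scale (moderated F-test, adjusted p = 0.00938). They differed in *Cat* by 0.59 (adjusted p = 0.0342). These were 2 of the 7 tested members, and 12.6% of all tested genes passed this test. The clone differences of *Gpx4* kept an adjusted p under 0.05 without any 1 of the 9 samples. For *Cat* it rose over 0.05 when any of 7 of the 9 samples was left out, up to 0.122 without *KEAP1* KO #3 replicate 3. The mean of the *KEAP1* KO clones lay 0.36 above *NRF2* KO for *Gpx4* (adjusted p = 0.0315), which did not hold without *NRF2* KO replicate 2 (0.32, adjusted p = 0.111) or replicate 3 (0.30, adjusted p = 0.14). A processed copy, *Gpx4-ps2*, shares 38.7% of the 31-base stretches of *Gpx4*, so reads could be split between them. It averaged 7.65 CPM in LL2 WT, 6.10 in *KEAP1* KO #1, 9.89 in #2, 12.8 in #3 and 8.84 in *NRF2* KO.

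**Figure D2:**
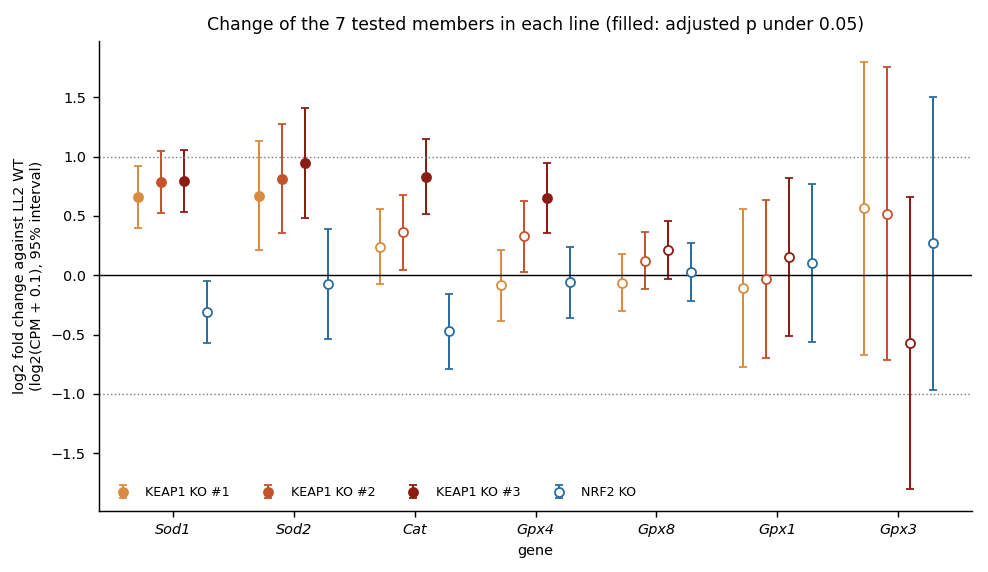
Log2 fold change against LL2 WT (difference of log2(CPM + 0.1), with 95% limma intervals) of the 7 tested members in each knockout line; filled points have an adjusted p under 0.05 and dotted lines mark a log2 fold change of 1. *Sod1* and *Sod2* are filled in all *KEAP1* KO clones, *Cat* and *Gpx4* in *KEAP1* KO #3, and no point is filled in *NRF2* KO.

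GPX1 is the ubiquitous cytosolic peroxidase for hydrogen peroxide. *Gpx1* (chr9:108338903-108340343, forward strand) was at 487, 551 and 211 CPM in LL2 WT, and replicate 3 lay far below the others. It was at 436, 347 and 302 CPM in *KEAP1* KO #1, at 416, 394 and 322 in #2, at 469, 491 and 337 in #3 and at 464, 487 and 311 in *NRF2* KO. All line ranges overlapped with LL2 WT. The log2 fold changes were −0.10, −0.03, 0.15 and 0.11 (adjusted p from 0.74 to 0.953), with intervals as wide as −0.77 to 0.56 in *KEAP1* KO #1, so changes of that size were not detectable. Without LL2 WT replicate 3 alone, the signs in *KEAP1* KO #3 and *NRF2* KO turned (−0.28 and −0.33).

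GPX8 is a membrane protein of the endoplasmic reticulum. *Gpx8* (chr13:113042753-113046410, reverse strand) was at 97.6, 108 and 110 CPM in LL2 WT, at 102, 99.5 and 99.7 in *KEAP1* KO #1, at 121, 130 and 95.2 in #2, at 128, 125 and 112 in #3 and at 111, 115 and 96.1 in *NRF2* KO. The samples of *KEAP1* KO #3 lay above every LL2 WT sample, as for 22% of tested genes, and the other lines overlapped with LL2 WT. The log2 fold changes were −0.06, 0.12, 0.21 and 0.03, and none passed the test (adjusted p from 0.169 to 0.959). The 95% intervals kept all of them between −0.30 and 0.46. The signs in *KEAP1* KO #2 and *NRF2* KO turned with quantile normalization (−0.01 in both).

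GPX3 is the secreted plasma peroxidase. *Gpx3* (chr11:54902453-54910377, forward strand) was at 0.133, 0.173 and 0.288 CPM in LL2 WT, at 0.373, 0.0698 and 0.894 in *KEAP1* KO #1, at 0.501, 0.229 and 0.268 in #2, at 0.111, 0.0714 and 0.109 in #3 and at 0.496, 0.136 and 0.207 in *NRF2* KO. The *KEAP1* KO #3 samples lay below every LL2 WT sample, as for 18% of tested genes, and at most at 0.111 CPM. Replicates of *KEAP1* KO #1 differed more than the lines did. No comparison passed the test (adjusted p from 0.331 to 0.904), and on the log2(CPM + 0.1) scale folds of so low a gene are understated.

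GPX2 is the peroxidase of gut and airway epithelium and a known NRF2 target. *Gpx2* (chr12:76792333-76795554, reverse strand) was near absent in every line. LL2 WT was at 0, 0.0383 and 0.0116 CPM and all *NRF2* KO samples were listed at 0. *KEAP1* KO #1 was at 0.0412, 0 and 0.074 CPM, #2 at 0.163, 0 and 0, and #3 at 0, 0.0418 and 0.115. In each of the *KEAP1* KO clones at least 1 sample was at 0, and the 2 samples over the floor (*KEAP1* KO #2 replicate 1 and #3 replicate 3) came from different clones. A difference of *Gpx2* between lines was not detectable at this depth, in clones whose *Nqo1* was 9.13 to 16.2 times as high as in LL2 WT.

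GPX7 is a peroxidase of the endoplasmic reticulum. *Gpx7* (chr4:108400390-108406961, reverse strand) was listed at 0 in 12 of 15 samples and at or under the floor in all. The 3 values above 0 were 0.0302 and 0.0778 CPM in *KEAP1* KO #2 and 0.0282 in #3. *Gpx2* overlaps *Fntb*, *Gpx8* overlaps *Cdc20b* and *Sod1* overlaps *Scaf4* on the opposite strand, and the use of strand in counting is not given in the sources used here.

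**Figure D3:**
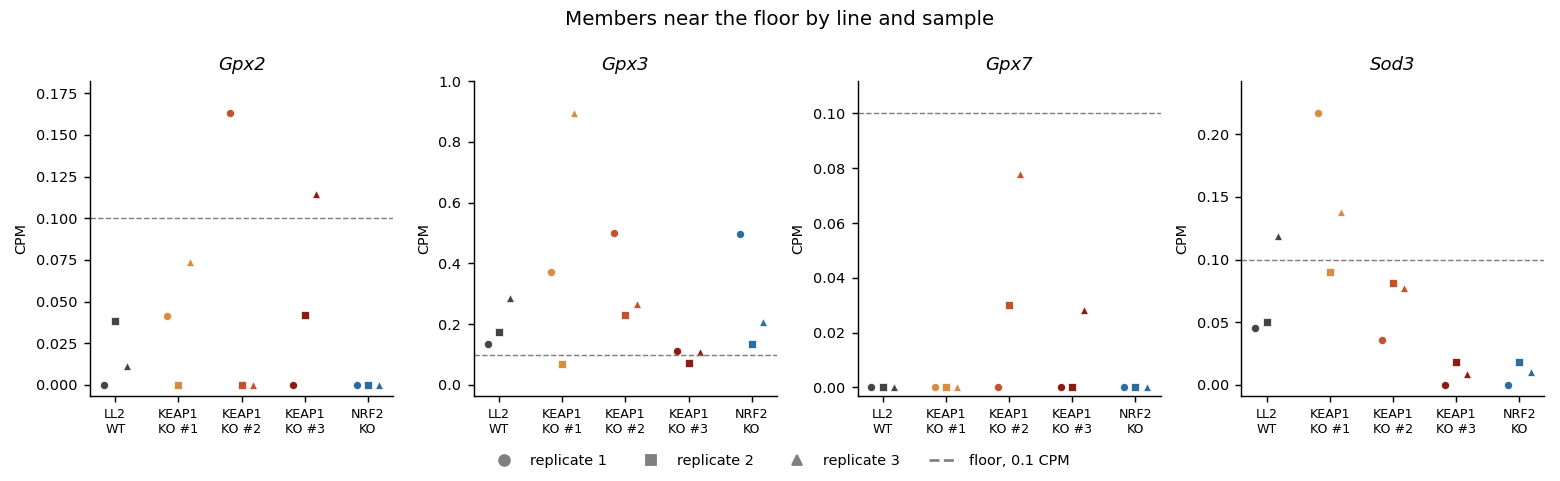
CPM (linear axes, each with its own scale) of the 4 members at or near the floor, by line; points are samples shaped by replicate number and the dashed line is the floor of 0.1 CPM. *Gpx2* is over the floor in 2 samples, *Gpx7* in 0 and *Sod3* in 3, and *Gpx3* scatters up to 0.894 CPM in *KEAP1* KO #1.

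Some members moved with the replicate number. In replicate 3, *Gpx1*, *Sod1* and *Sod2* were the lowest of the 3 samples in all 5 lines, as were 10.19% of tested genes. *Cat* was highest in replicate 3 in 4 of 5 lines, and 20.53% of tested genes were highest in all 5. Replicate 3 of *Gpx1* minus the mean of replicates 1 and 2 was −1.299 on the log2 scale in LL2 WT and −0.61 to −0.33 in the other lines. What replicate 3 shares across lines is not given by the labels. Without replicate 3 of every line, 4 members passed the adjusted p in *KEAP1* KO #1, 5 in #2, 5 in #3 and 0 in *NRF2* KO. Of all tested genes 26.9%, 39.6%, 40.2% and 0.403% then passed it in either direction, against 23.2%, 31.9%, 31.4% and 0.621% with all samples. Among the members was *Gpx1*, then lower than LL2 WT in *KEAP1* KO #1 (log2 fold change −0.41, adjusted p = 0.0283) and #2 (−0.35, adjusted p = 0.0352). *Gpx8* then passed in *KEAP1* KO #2 (0.29, adjusted p = 0.0122) and #3 (0.31, adjusted p = 0.0095). *Cat* then passed also in *KEAP1* KO #1 (0.32, adjusted p = 0.0121) and #2 (0.55, adjusted p = 0.000776). The rise of *Sod1*, *Sod2*, *Cat* and *Gpx4* in *KEAP1* KO #3 held, at 0.79, 0.85, 0.93 and 0.49 (highest adjusted p = 0.0235).

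**Figure D4:**
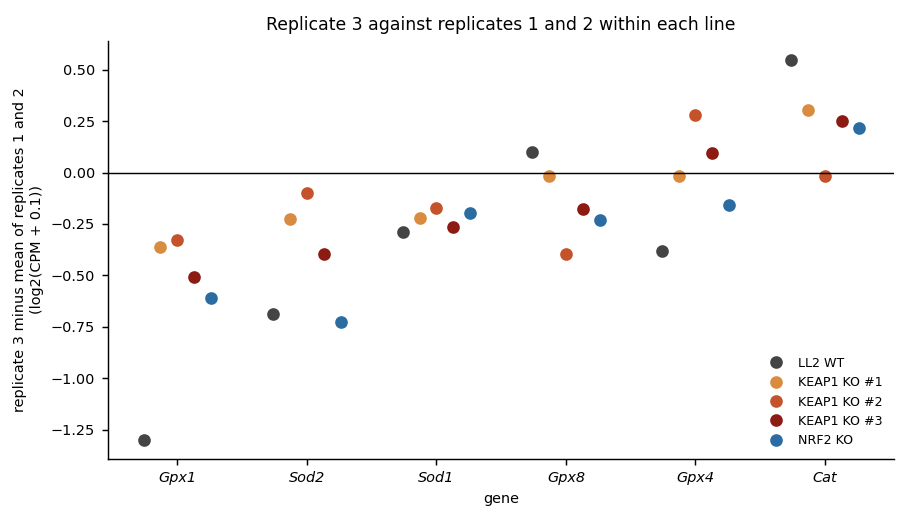
Replicate 3 minus the mean of replicates 1 and 2 on the log2(CPM + 0.1) scale, 1 point per line, for the 6 members well over the floor. All 5 points of *Gpx1*, *Sod2* and *Sod1* lie below 0, with *Gpx1* in LL2 WT at −1.299, and 4 of 5 points of *Cat* lie above 0.

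Further genes of the same pathways were taken from 6 lists. Of 20 other peroxide reducers and glutathione-recycling genes 18 were tested, and 4 were called higher in each *KEAP1* KO clone with none lower, beside 4.55% to 6.09% of all tested genes called higher. These were *Mgst1* (log2 fold change 4.89 to 5.58), a membrane-bound glutathione transferase with peroxidase activity, *Txnrd1* (1.41 to 1.97), the thioredoxin reductase, *G6pdx* (1.02 to 1.57), which feeds NADPH, and *Gsr* (1.18 to 1.305), which regenerates the glutathione that the peroxidases consume. The mean of *Gsr* was 132 ± 22.1 CPM in LL2 WT and 295 to 322 CPM in the *KEAP1* KO clones. By the adjusted p alone, 7, 10 and 7 genes of the list rose in #1, #2 and #3, beside 15.9%, 17.3% and 16.6% of all tested genes. By the same rule 2, 3 and 1 fell, beside 7.25%, 14.6% and 14.8%. The list median was 0.35, 0.58 and 0.53 in the clones. In *NRF2* KO, where 0.375% of tested genes were called lower, 3 were called lower, namely *Mgst1* (−4.17), *Mgst2* (−1.41) and *Srxn1* (−1.02). *Srxn1* was at 65.6, 60.0 and 69.5 CPM in LL2 WT and lay below all of these in *KEAP1* KO #2 (37.0, 34.4 and 45.5). It was at 60.5, 62.2 and 82.7 CPM in #1 and at 47.9, 45.1 and 63.8 in #3. The paralogs *Gpx5* and *Gpx6* did not exceed 0.022 and 0.117 CPM.

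Of 22 ferroptosis genes other than *Gpx4*, 19 were tested, and each *KEAP1* KO clone had 2 called higher and 1 lower, beside 4.55% to 6.09% of all tested genes called higher and 3.99% to 7.75% lower. *Slc7a11*, the cystine importer that supplies glutathione synthesis, rose by 2.29 to 4.67 on the log2 scale. Its LL2 WT mean was 4.26 ± 2.11 CPM, and the clone means in their order were 19.5 ± 4.82, 52.5 ± 4.99 and 99.6 ± 4.12 CPM. *Ptgs2*, a prostaglandin synthase used as a ferroptosis marker, rose by 2.55 to 3.08. *Gch1*, which makes the lipid antioxidant tetrahydrobiopterin, fell (log2 fold change −3.56 to −3.24), with 37.6 ± 16.4 CPM in LL2 WT against 3.31 ± 0.849, 2.99 ± 1.22 and 3.75 ± 1.47 CPM. The ferritin chains, named after their values were seen, parted, with *Ftl1* higher (0.67 to 0.94) and *Fth1* lower (−0.72 to −0.50) in all *KEAP1* KO clones by the adjusted p, and both lower in *NRF2* KO (−0.81 and −0.46). The list median was 0.23, 0.29, 0.47 and −0.17 in the 4 lines.

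All 21 listed genes of selenoprotein synthesis and of selenoproteins other than the peroxidases were tested. The list does not hold every selenoprotein. The thioredoxin reductases *Txnrd1* and *Txnrd2* were counted with the other peroxide reducers. *Txnrd1* was called higher in each *KEAP1* KO clone, while *Txnrd2* was at 40.0, 39.4 and 18.5 CPM in LL2 WT and at 16.4 to 21.4 in the clones. By the adjusted p, 7 fell in *KEAP1* KO #1, 10 in #2 and 9 in #3, beside 7.25%, 14.6% and 14.8% of all tested genes. By the same rule 3, 2 and 3 rose, beside 15.9%, 17.3% and 16.6%. Of those that fell, 0, 3 and 4 were called lower, beside 3.99%, 7.75% and 7.34%, and none in all 3 clones. *Selenow* (−1.25 to −0.86), *Selenom* (−1.26 to −0.73), *Selenon*, *Selenoh*, *Selenoo* and *Trnau1ap*, a factor of selenocysteine insertion, were lower in all 3 clones by this rule, and *Selenoi* and *Selenot* higher. These 8 were named after their values were seen. *Selenop*, the secreted selenium carrier, was the 1 gene of the list called in *NRF2* KO (−3.40, adjusted p = 0.021), beside 0.375% of tested genes called lower. *Selenop* averaged 0.981 CPM there. It was also called lower in *KEAP1* KO #2 (−3.60, adjusted p = 0.00068) and #3 (−2.05, adjusted p = 0.0212), and was at 0.94 in #1 (adjusted p = 0.286). It varied from 5.01 to 24.9 CPM within LL2 WT.

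Of 16 superoxide sources 7 were tested, and in all *KEAP1* KO clones *Aox1* (1.52 to 1.73), aldehyde oxidase, was called higher and *Cyba* (−3.22 to −2.02), a membrane subunit of NADPH oxidases, lower. Of 18 peroxisome genes, the organelle of catalase, 14 were tested, with *Hao1* (1.15 to 1.53), a peroxide-producing oxidase, called higher and *Paox* (−1.48 to −1.44), a polyamine oxidase, called lower in each clone. Of the 13 genes that supply copper, manganese and heme, all were tested, and 1 was called higher in *KEAP1* KO #1 and 0 in #2 and #3. Beside these 3 lists, 4.55% to 6.09% of all tested genes were called higher in the clones and 3.99% to 7.75% lower. By the adjusted p, 3, 4 and 4 of the 13 supply genes rose in the clones, beside 15.9%, 17.3% and 16.6% of tested genes. By the same rule 1, 1 and 0 fell, beside 7.25%, 14.6% and 14.8%. *Fech*, which inserts iron into heme and was named after its values were seen, rose by 0.53 to 0.75 in all 3 clones. The gene that fell was *Ccs*, of the copper supply, also named after its values were seen. Its log2 fold change was −0.60 in #1 (adjusted p = 0.0112), −0.43 in #2 (adjusted p = 0.0409) and −0.32 in #3 (adjusted p = 0.119). No gene of these last 3 lists was called in *NRF2* KO, and 0, 0 and 0 genes passed the adjusted p there. At an unadjusted p under 0.05, whose share over all tested genes was not computed, there were 1, 0 and 2 genes in *NRF2* KO. Of all tested genes, 0.0887% were called higher there and 0.375% lower, and 0.621% passed the adjusted p in either direction. Over all 6 lists, 25 genes passed the adjusted p in the same direction in all *KEAP1* KO clones. In single clones, 23.2% to 31.9% of all tested genes passed it in either direction. All 25 kept their direction with CPM rescaled by the median ratio and with quantile normalization, and *Mgst3* and *Selenot* (both scalings) and *Hao1* (quantile) no longer passed it in every clone.

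Over the 15 samples and 11676 genes with a mean of at least 1 CPM, likeness of pattern was measured as the root mean square difference of log2 values centred on each gene's mean. Closest to *Gpx4*, whose own SD was 0.33, were *Plin3* (0.13), *Prmt2* (0.16) and *Tubgcp4* (0.16). Closest to *Cat*, whose own SD was 0.47, were *Pdlim5* (0.14), *Hmox1* (0.17) and *Sik1* (0.18). *Hmox1*, heme oxygenase, averaged 46.5 ± 9.53 CPM in LL2 WT, 56.2 ± 3.36 in *KEAP1* KO #1, 56.9 ± 9.56 in #2, 71.2 ± 3.37 in #3 and 33.8 ± 8.46 in *NRF2* KO. No such genes are given for *Gpx2*, which lies at or around the floor.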

How the data were processed

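The authors pseudo-aligned the reads with Kallisto to GRCm38.p6 transcripts according to the study's methods (the submitters' notes list GRCm39) and deposited CPM per gene symbol. CPM are counts scaled to a common total. Read counts were not recoverable from them. At most 11.3% of low values fell on whole steps (within 0.05) where chance gives 10%. All samples and columns were used, except 1 row without a symbol (0.0214% to 0.0491% of CPM). log2(CPM + 0.1) was tested with limma 3.58.1 (R 4.3.3; 1 model of the 5 line means with moderated variances and a trend), with Benjamini-Hochberg adjustment over the 14652 genes that reached 3 CPM in sum. The tests were tried on simulated data. Line ranges and Python 3.11.15 figures used the deposited CPM.

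Positions and coding stretches are from GENCODE M21, and promoter windows from RefSeq. The members and lists were chosen with earlier results of these data known. Named are all members, *Keap1*, *Nfe2l2* and *Nqo1*, up to 4 genes per list called alike in all *KEAP1* KO clones with the largest changes, those called in *NRF2* KO, and the 3 genes most like *Gpx4* and *Cat* (the rule also names *Gpx2*, left out as it lies at the floor). Alternatives covered the pseudocount, filter, scaling, model, replicate number and left-out samples. For 1 listed gene the result is not reported here.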

Additional observations from a re-analysis of the deposited data

Results flagged for a closer look

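The levels of *Gpx4* and *Cat* differed between the 3 *KEAP1* KO clones by a test of the clone means (moderated F-test in limma). The highest minus the lowest clone mean was 0.74 on the log2 scale for *Gpx4* (adjusted p = 0.00938) and 0.59 for *Cat* (adjusted p = 0.0342), and *KEAP1* KO #3 was the highest clone for both. Each clone had 3 samples.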

How the results depend on the processing

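Over the tested members and comparisons, 744 values kept direction and side of the adjusted p, 17 newly passed it, 23 lost it and 29 changed sign, none of the last from a value past the adjusted p. The count called in *KEAP1* KO #3 went from 0 to 1 without any 1 LL2 WT replicate or *KEAP1* KO #3 replicate 3 (range 0 to 1). In the mean of the *KEAP1* KO clones against *NRF2* KO it was 0 with quantile normalization, and 1 to 2 with 1 replicate left out. Without the filter, 1 member was called among the clones (*Sod3*, span 1.16, adjusted p = 0.0153). *Sod3* did not exceed 0.217 CPM and lay at or under the floor in 12 of 15 samples, so no fold is read from it. *Cat* lost its difference among the clones without the filter (adjusted p = 0.0533) and without the variance trend (0.0549).

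Signs that changed with scaling were *Gpx8* in *KEAP1* KO #2 (quantile, −0.0084), in *NRF2* KO (median ratio, −0.0192; quantile, −0.0146) and against *NRF2* KO (quantile, −0.0267). Without replicate 3 of every line, *Gpx1* turned in *KEAP1* KO #3 (−0.111) and *NRF2* KO (−0.123). The cause was not tested.

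With 1 replicate left out, values that changed sign ranged as follows. In *KEAP1* KO #1, *Gpx1* ran from −0.536 to 0.158, *Gpx3* from −0.0394 to 1.24 and *Gpx4* from −0.212 to 0.0241. *Gpx1* ran from −0.464 to 0.23 in *KEAP1* KO #2 and from −0.28 to 0.414 in #3. In *NRF2* KO, *Gpx1* ran from −0.327 to 0.367, *Gpx3* from −0.113 to 0.554, *Gpx4* from −0.187 to 0.0489, *Gpx8* from −0.0245 to 0.104 and *Sod2* from −0.304 to 0.166. Against *NRF2* KO, the clone mean of *Gpx1* ran from −0.304 to 0.0193, of *Gpx3* from −0.383 to 0.284 and of *Gpx8* from −0.0118 to 0.115.

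Replicate numbers paired the samples in part. Deviations of same-numbered samples from their line means had a median r of 0.276 (30 pairs). The 60 others had −0.192, which is no separate contrast because the deviations within a line sum to 0. Across the 10 pairs of lines, r was −0.022 to 0.278 for replicate 1, 0.126 to 0.529 for replicate 2 and 0.422 to 0.631 for replicate 3. Pairing was counted as held only where r passed a set minimum for every replicate number. It held in 2 of 10 pairs of lines and in 0 with LL2 WT. The main tests hold no term for the replicate number. With the replicate number as a block, the counts called were 0 in all 4 lines and 1 against *NRF2* KO, as without it. Members past the adjusted p were 2 in *NRF2* KO in place of 0 (*Cat*, −0.47, adjusted p = 0.0282; *Sod1*, −0.31, adjusted p = 0.0261), and *Cat* passed in *KEAP1* KO #2 (adjusted p = 0.0095). A batch term for replicate 3, added after seeing the data, gave the same 3 changes (adjusted p = 0.022, 0.0351 and 0.0069).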
